A study of Bos taurus with 54 samples.

Results

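The HSP70 and HSP110 chaperones were followed through 10 genes, HSPA1A, HSPA1L, HSPA2, HSPA4, HSPA4L, HSPA8, HSPA9, HSPA13, HSPA14 and HSPH1, which were picked by symbol from the 32637 genes counted in each library. Whole blood was drawn from 15 male Holstein calves kept in climate-controlled rooms, in the morning at thermoneutrality (6AM, control) and in the evening after 12 h of heat (6PM, heat stress). Red cells were lysed before RNA was isolated from the pelleted cells. The RNA was sequenced as 54 libraries from the 3′ ends of mRNA, 27 made with a Takara kit (SMART-Seq v4 3′ DE) and 27 with a Lexogen kit (QuantSeq 3′). Each kit gave 13 control and 13 heat stress libraries for the comparison of times. In each kit, 12 animals had a library at both times. The remaining library of each kit, from animal 20, was left out because the labels and the sample table of the study put it at different times. Heat and time of day changed together, so the effects of each cannot be told apart, and there was no group that stayed at thermoneutrality until the evening.

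HSP70 proteins bind exposed stretches of unfolded proteins and release them in a cycle driven by ATP. J proteins bring the client and start ATP hydrolysis. HSP110 proteins are distant HSP70 relatives that exchange the spent nucleotide, so that the client is let go. In mammalian cells some of these genes are always on and others are switched on by heat shock factor when proteins unfold. White blood cells express both kinds.

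Reads on genes ranged from 5140595 to 20699030 in the 26 Takara libraries and from 4516761 to 58521751 in the 26 Lexogen libraries. Levels are given as CPM, the reads of a gene relative to the library size after TMM scaling within the kit, and were not compared between genes. Markers of blood cell types differed in level between the times. Of 8 neutrophil markers, 7 were up-regulated after heat stress in Takara and 7 in Lexogen, where 28.9% and 5.55% of all genes tested were called. The summed neutrophil level ran from 1789 to 8596 CPM (median 4946) in Takara control and from 2016 to 39390 CPM (median 16581) in Takara heat stress libraries. In Lexogen it ran from 832 to 3797 CPM (median 2210) and from 1260 to 18959 CPM (median 5497). The sum leans on the markers with the highest levels. In the Takara fit S100A8 and S100A9 had an average log2 CPM of 12.3 and 12.0, against 4.2 for MGAM and 4.4 for MMP9. With the animal as a block, 7 neutrophil markers were called in Takara and 0 in Lexogen, where 25.1% and 0.594% of all genes tested were called. In Takara, 5 of 10 T cell markers and 1 of 8 B cell markers were down-regulated and 2 of 5 monocyte markers were up-regulated, while 0 of 5 platelet and 0 of 2 erythroid markers tested were called. In Lexogen, 0 markers outside the neutrophil list were called. HBA was at 0 in the control libraries of both kits and in the Lexogen heat stress libraries. The neutrophil change of each animal is set beside the chaperone changes further on, and the part of the other cell markers in the chaperone results was not tested. In bulk blood fewer cells of a type and less RNA per cell cannot be told apart.

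Among the 10 chaperone genes tested in Takara, 4 were DEGs, all up-regulated, namely HSPA1A, HSPA1L, HSPA8 and HSPH1 (edgeR's quasi-likelihood test, adjusted p under 0.05). Over all genes tested in Takara, 18.4% were up-regulated and 10.5% down-regulated. In Lexogen 8 of the 10 genes had enough counts to be tested and 2 were up-regulated, HSPA1A and HSPH1, where 5.09% of all genes tested were up-regulated and 0.459% down-regulated. The median log2 fold change was 0.25 over the 10 genes in Takara, against -0.05 over all genes tested, and 0.08 over the 8 genes in Lexogen, against -0.08. The CPM of each gene in each library and the fitted changes are plotted by kit and time.

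**Figure D1:**
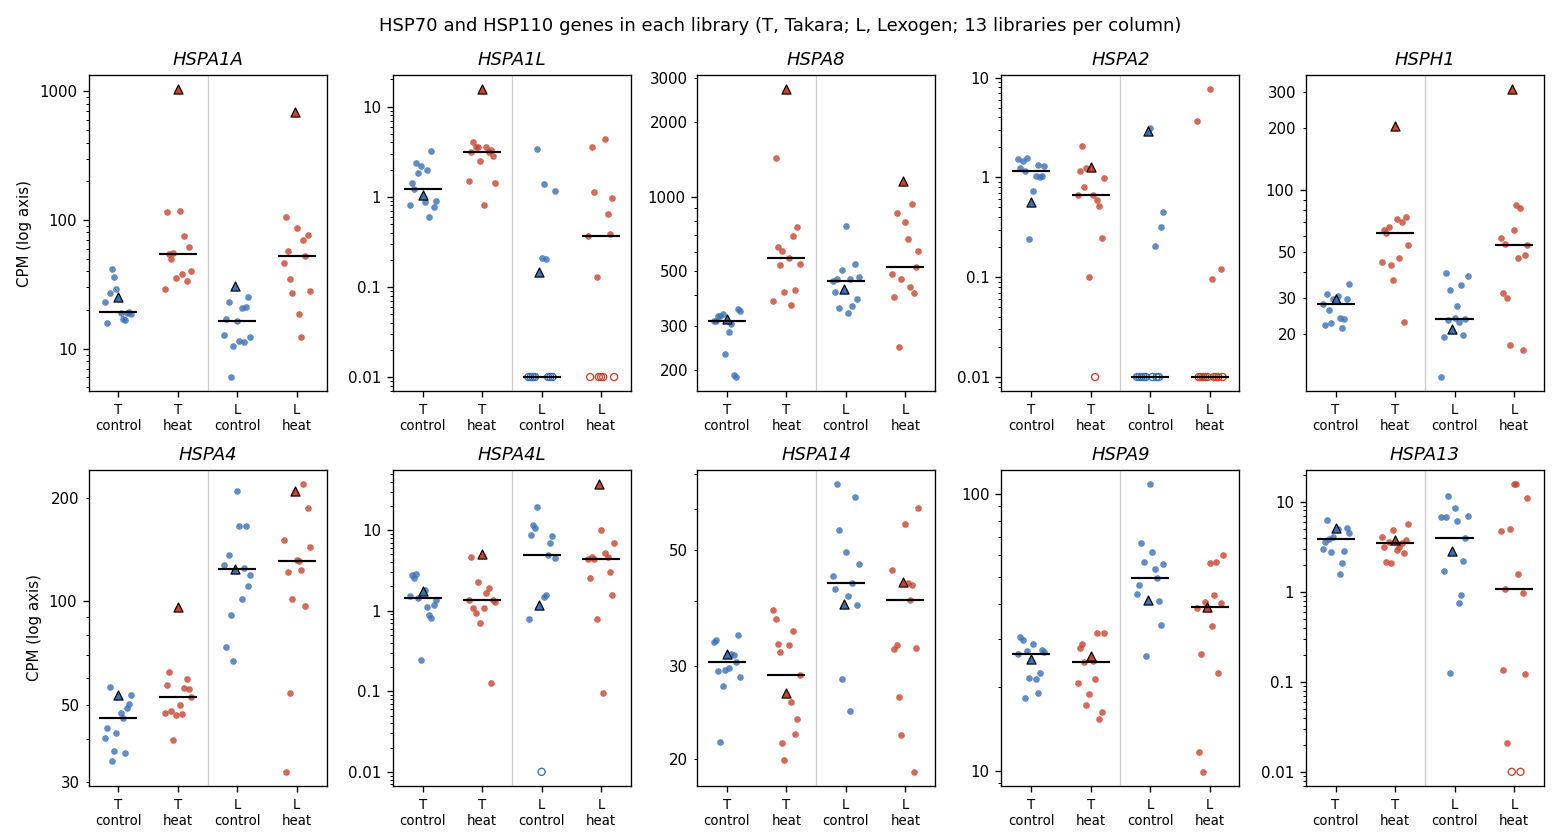
CPM (log axis) of the 10 chaperone genes in each library by kit and time, with a point per library, a bar at the median, a triangle for animal 18, and open circles at the foot of a panel for libraries with 0 counts. The Takara HSPA8 groups do not overlap (364 CPM against 351 CPM), and the heat stress library of animal 18 is the highest for HSPA1A, HSPA8 and HSPH1 in both kits.

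**Figure D2:**
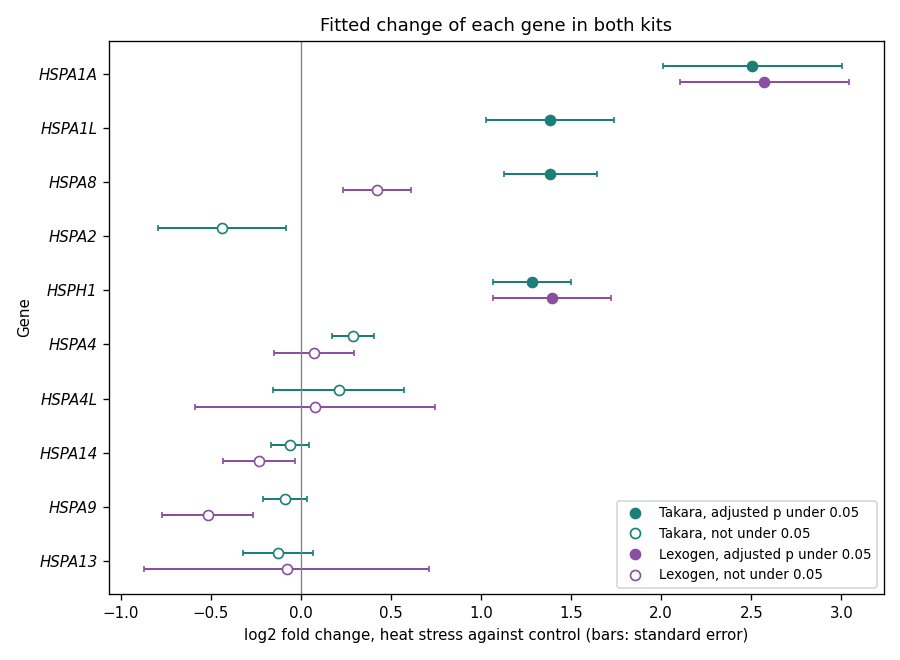
Fitted log2 fold change of heat stress against control for each gene and kit, with its standard error as a bar and filled points where the adjusted p is under 0.05. HSPA1A lies near 2.5 in both kits, while HSPA8 lies at 1.38 in Takara and 0.42 in Lexogen. Without the heat stress library of animal 18, HSPA1A was at 1.31 in Takara and 1.62 in Lexogen, and HSPA8 at 1.03 and 0.33.

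HSPA1A encodes the main heat-inducible cytosolic HSP70. It lies on chromosome 23 (27520317 to 27522790, ARS-UCD2.0), 54 bases before the neighbouring HSPA1L. HSPA1B, a near-identical copy in other mammals, was not analysed here. Because only reads with a unique place were counted, reads that matched more than a single copy would be missing. In Takara control libraries HSPA1A ran from 15.9 to 41.7 CPM (median 19.3), and in Takara heat stress libraries from 29.3 to 1040.0 CPM (median 54.2). The groups overlapped, with 8 of 13 heat stress libraries above every control, and the median was 2.80 times higher after heat stress. All 12 animals rose, by 0.26 to 5.36 on the log2 scale, and 10 of them did with total counts in place of TMM. The fitted log2 fold change was 2.51 ± 0.50 (SE; edgeR's quasi-likelihood test, adjusted p = 0.000821).

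HSPA1A was also up-regulated in Lexogen, with 6.02 to 30.9 CPM (median 16.5) in control and 12.4 to 695 CPM (median 52.2) in heat stress libraries. Here 9 of 13 heat stress libraries lay above every control. The gene rose in 11 of 12 animals, and animal 29 had the opposite sign, at -0.73. The fitted log2 fold change was 2.57 ± 0.47 (SE; edgeR's quasi-likelihood test, adjusted p = 0.00108). A large share of the fitted size came from animal 18, whose heat stress library held 1040.0 CPM in Takara and 695 CPM in Lexogen, while the next highest libraries held 117.3 and 105 CPM. Without that library the log2 fold change was 1.31 in Takara and 1.62 in Lexogen, still past the threshold. With the animal as a block it was 1.498 ± 0.37 in Takara and 1.84 ± 0.34 in Lexogen, and HSPA1A remained a DEG in both.

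HSPA1L encodes a cytosolic HSP70 that is best known from testis and sits next to HSPA1A on chromosome 23 (27522845 to 27527209). Its counts were low, from 4 to 29 reads in Takara control and 6 to 234 reads in Takara heat stress libraries. That was 0.60 to 3.20 CPM (median 1.23) and 0.80 to 15.6 CPM (median 3.16), with overlap and with 6 of 13 heat stress libraries above every control. It rose in 11 of 12 Takara animals (9 with total counts), by 1.38 ± 0.35 in the fit (SE; edgeR's quasi-likelihood test, adjusted p = 0.00501). Animal 18 was again the highest, and without its heat stress library the log2 fold change was 0.92. Of the reads assigned by strand in Takara, 96.7% were on the sense strand of HSPA1L. In Lexogen 12 of 26 libraries held 0 reads of the gene and it was not tested.

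HSPA8 encodes the constitutive cytosolic HSP70, HSC70, the housekeeping member of the family, and lies on chromosome 15 (33679011 to 33683436). Takara control libraries held 187 to 351 CPM (median 313.7). In Takara heat stress libraries it ran from 364 to 2714 CPM (median 566). The groups did not overlap, which held for 0.0238% of all Takara genes in the same direction and 0.00792% in the opposite one. HSPA8 rose in 12 of 12 Takara animals, by 0.28 to 3.08 on the log2 scale, and total-count scaling left all 12 higher. The fitted log2 fold change was 1.38 ± 0.26 (SE; edgeR's quasi-likelihood test, adjusted p = 0.000563), and it was 1.03 without the heat stress library of animal 18. The gene interval also holds annotated snoRNA genes, and 99.7% of the Takara reads assigned by strand were on the sense strand.

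In Lexogen HSPA8 was not called. The animals in the groups were not all the same as in Takara, since animals 7 and 15 lacked a Lexogen library of a time and animals 23 and 29 a Takara one. Lexogen control libraries held 340 to 762 CPM (median 456) and Lexogen heat stress libraries 248 to 1158 CPM (median 520). Those groups overlapped, as they did for every member in Lexogen (0% of all Lexogen genes had no overlap and were higher, and 0.009% lower), 4 of 13 heat stress libraries lay above every control, and the level was higher after heat stress in 8 of 12 animals. The log2 fold change was 0.42 ± 0.19 (SE), with an adjusted p of 0.226 in edgeR's quasi-likelihood test. Where both kits had sequenced an RNA sample, the response of HSPA8 was larger in Takara by 0.61 ± 0.22 (SE). That difference had an unadjusted p of 0.00958 and an adjusted p of 1 in edgeR's quasi-likelihood test over all genes, so it was not called.

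HSPA2, on chromosome 10 (76679840 to 76682347), encodes another HSP70 known mainly from testis. It was near the floor of these data, with at most 29 reads in a Takara library. Takara control libraries held 0.24 to 1.58 CPM (median 1.15) and heat stress libraries 0 to 2.07 CPM (median 0.67). The fitted log2 fold change was -0.44 ± 0.36 (SE), lower in 10 of 12 animals, with an adjusted p of 0.361 in edgeR's quasi-likelihood test. In Lexogen 17 of 26 libraries held 0 reads of HSPA2, so a change was not detectable at this depth.

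Of the 3 HSP110 genes, HSPH1 had a response in both kits. It encodes the heat-inducible HSP110, HSP105, and lies on chromosome 12 (29796159 to 29819631). Takara control libraries held 21.5 to 35.2 CPM (median 27.997) and Takara heat stress libraries 22.96 to 205 CPM (median 61.8). All but 1 of the 13 heat stress libraries lay above every control. The exception was animal 36, the animal whose HSPH1 level did not rise, at -0.06 on the log2 scale (10 of 12 rose with total counts). The fitted log2 fold change was 1.28 ± 0.22 (SE; edgeR's quasi-likelihood test, adjusted p = 0.000371), and without the heat stress library of animal 18 it was 1.00.

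In Lexogen HSPH1 ran from 12.4 to 39.9 CPM (median 23.8) in control and from 16.9 to 308 CPM (median 54.3) in heat stress libraries. These groups overlapped, 9 of 13 heat stress libraries lay above every control, and 9 of 12 animals rose. The fitted log2 fold change was 1.39 ± 0.33 (SE; edgeR's quasi-likelihood test, adjusted p = 0.00813), and 0.92 without the heat stress library of animal 18. With the animal as a block it was 1.03 ± 0.33 with an adjusted p of 0.139, so the Lexogen call was lost. The same block lowered the number of Lexogen DEGs in the whole table from 616 to 66. Pairing by animal was weak in Lexogen, where 1 of 12 animals had a correlation over 0.1 between its control and heat stress libraries. In Takara 11 of 12 had, with each library taken as deviations from the mean of its time.

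HSPA4 encodes APG-2, a constitutive HSP110, and lies on chromosome 7 (44607161 to 44661126). Takara control libraries held 34.4 to 56.4 CPM (median 45.97) and heat stress libraries 39.6 to 96.5 CPM (median 52.6), with overlap. Its log2 fold change of 0.29 ± 0.11 (SE) was seen as a higher value in 11 of 12 animals (8 with total counts), and the adjusted p was 0.0572 in edgeR's quasi-likelihood test. With the animal as a block the size was 0.29 ± 0.10 and the adjusted p 0.0416, and without animal 18 in that fit the adjusted p was 0.0851. With total counts as library size HSPA4 was at 0.04. In Lexogen the HSPA4 libraries ran from 67.3 to 208 CPM (median 124) in control and from 32.03 to 219 CPM (median 131) in heat stress, at a log2 fold change of 0.07 ± 0.22 (SE) and an adjusted p of 0.919.

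HSPA4L encodes APG-1, the third HSP110, on chromosome 17 (29812718 to 29876393). An lncRNA gene and a pseudogene of the annotation overlap it. Of the reads assigned by strand, only 27.5% in Takara and 25.98% in Lexogen were on the sense strand. These are not shares of the unstranded count, since the strand columns together held more reads. Takara control libraries held 250 unstranded reads in total, with 96 sense and 433 antisense, and heat stress libraries 269, with 178 and 291. The unstranded count thus cannot be read as HSPA4L alone. Takara libraries held 0.24 to 2.83 CPM (median 1.45) in control and 0.13 to 5.06 CPM (median 1.34) in heat stress. The log2 fold change was 0.21 ± 0.36 (SE) in Takara and 0.08 ± 0.67 (SE) in Lexogen, with adjusted p-values of 0.688 and 0.977 in edgeR's quasi-likelihood test, and the sign turned under total-count scaling in both kits.

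The members that work at the ribosome or in organelles had no called change in either kit. HSPA14, a ribosome-associated HSP70 on chromosome 13 (29492645 to 29517244), changed by -0.06 ± 0.11 (SE) on the log2 scale in Takara. Its Takara CPM ran from 21.6 to 34.4 (median 30.6) in control and from 19.9 to 38.5 (median 28.9) in heat stress libraries. The groups overlapped over most of their range, and the Lexogen change of HSPA14 was -0.23 ± 0.20 (SE).

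HSPA9 encodes mortalin, the mitochondrial HSP70 that pulls imported proteins into the matrix, and lies on chromosome 7 (49893968 to 49909267). Takara control libraries held 18.4 to 30.4 CPM (median 26.4) and heat stress libraries 15.4 to 31.4 CPM (median 24.7). In Lexogen the values were 25.9 to 109 CPM (median 49.6) and 9.92 to 59.9 CPM (median 38.9), with 3 of 13 heat stress libraries below every control. The log2 fold change was -0.09 ± 0.12 (SE) in Takara and -0.52 ± 0.25 (SE) in Lexogen, where the adjusted p was 0.284 in edgeR's quasi-likelihood test. The level was lower in 8 of 12 animals in each kit.

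HSPA13, a microsomal HSP70 on chromosome 1 (22783919 to 22794032), was at 1.58 to 6.24 CPM (median 3.89) in Takara control and 2.11 to 5.70 CPM (median 3.49) in Takara heat stress libraries. Lexogen HSPA13 values spread from 0.13 to 11.5 CPM in control and from 0 to 15.8 CPM in heat stress. The changes were -0.13 ± 0.20 (SE) and -0.08 ± 0.79 (SE), with adjusted p-values of 0.653 and 0.980 in edgeR's quasi-likelihood test.

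The choice of scaling moved all genes together. With total counts as library size the median log2 fold change of all Takara genes was -0.27 in place of -0.05, and 1303 genes were up-regulated and 2185 down-regulated in place of 2325 and 1321. Against that median HSPA1A at 2.09, HSPA1L at 1.05, HSPA8 at 1.05 and HSPH1 at 1.01 remained DEGs in Takara.

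The size of the response differed between animals. Within Takara the log2 change of HSPA1A averaged 1.60 ± 1.49 (SD, n = 12), that of HSPA8 1.22 ± 0.78 and that of HSPH1 1.11 ± 0.73. Animal 18 had the largest change of all 3 genes in both kits, with 5.36 and 4.49 for HSPA1A in Takara and Lexogen, 3.08 and 1.45 for HSPA8, and 2.79 and 3.86 for HSPH1. Its heat stress library was also the highest of 13 in the summed level of 13 other heat shock genes in both kits, at 9500 CPM in Takara (median 3896) and 7108 CPM in Lexogen (median 3227). Among the cell type lists the same library was 6th of 13 in Takara and 5th in Lexogen for neutrophil markers, and 12th in both kits for T cell and for B cell markers. It was 1st in Takara and 5th in Lexogen for platelet, 2nd and 5th for erythroid, and 4th and 9th for monocyte markers. In Takara this library was the deepest, with 20699030 reads on genes and 18532 genes with a count, the most of any library. In Lexogen it held 4604914 reads on genes and 9273 genes with a count, the fewest genes of any library. The part of these lists and of depth in the changes of animal 18 was not tested.

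**Figure D3:**
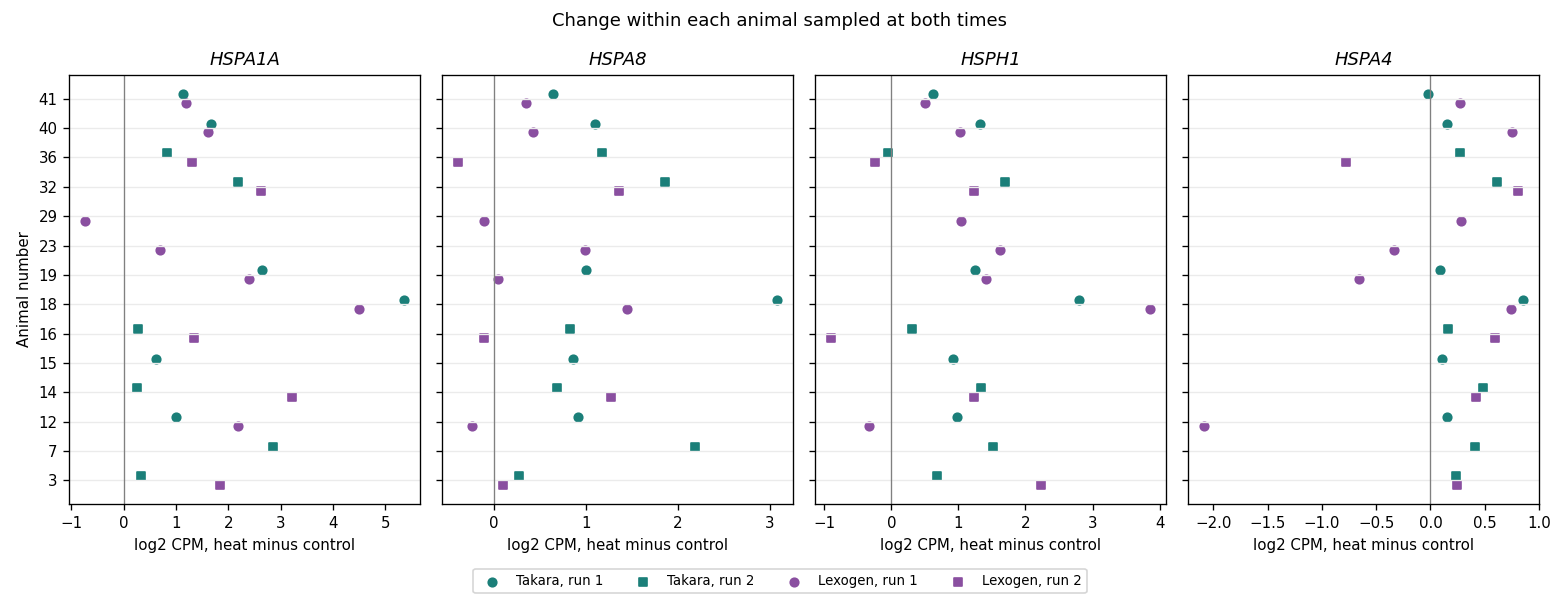
Change in log2 CPM from control to heat stress within each animal sampled at both times, for HSPA1A, HSPA8, HSPH1 and HSPA4, coloured by kit and with circles and squares for both runs of sample numbers. All 12 Takara points of HSPA1A (10 with total counts) and of HSPA8 are above 0 and animal 18 stands apart, at 5.36 and 3.08.

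Both times were sequenced with both kits in 10 animals. The HSPA1A change had the same sign in both kits in 10 of these, that of HSPH1 in 8 and that of HSPA8 in 7. The animals' HSPH1 changes in the kits had a Pearson r of 0.80 (p = 0.00729) and a Spearman rho of 0.66 (p = 0.0434) in two-sided permutation tests with 100000 resamples. Benjamini-Hochberg adjustment over the 8 genes compared gave 0.0583 and 0.347 for HSPH1 in these permutation tests. For HSPA1A the r was 0.72 (permutation p = 0.0318, adjusted 0.127) and the rho 0.32, and for HSPA8 0.60 (permutation p = 0.0568, adjusted 0.151) and 0.27. Without the animals farthest from the median, 18 among them each time, r was 0.47 for HSPH1, 0.04 for HSPA1A and -0.32 for HSPA8. The relations of HSPA1A and HSPA8 thus rested on those animals. That of HSPH1 was smaller without them and did not pass (permutation p = 0.241).

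The change in the summed neutrophil level was set beside that of the called genes, as 6 relations over 12 animals each. In Takara HSPA8 had a Pearson r of 0.55 (permutation p = 0.0574, adjusted 0.344) and a Spearman rho of 0.68 (permutation p = 0.0183, adjusted 0.110) with the neutrophil change, and r was 0.38 without animals 3 and 41. The other 5 relations had r between -0.16 and 0.33, with HSPH1 at 0.10 in Takara and -0.16 in Lexogen. They moved without the animals farthest in the neutrophil change, 3 and 41 in Takara and 16 and 36 in Lexogen. HSPH1 was then at -0.14 in Takara and 0.42 in Lexogen, HSPA1A at 0.20 and 0.27, and HSPA1L at 0.16 in Takara. None of the 6 passed the adjustment in these permutation tests.

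The sample numbers fell into 2 runs with a gap, of 8 and 7 animals, which the labels do not explain. HSPA1A rose by 3.07 ± 0.73 (SE) in the first run and 1.25 ± 0.35 (SE) in the second in Takara, and both passed the test. Animal 18 belongs to the first run, and without its heat stress library HSPA1A was at 1.39 ± 0.26 (SE) there, still called. HSPA8 (1.41 and 1.33) and HSPH1 (1.43 and 1.03) were also called in each run. HSPA1L was called in the first (1.86) and not in the second (0.75, adjusted p = 0.239 in edgeR). Over all genes tested in Takara, 20.6% were called in the first run and 7.35% in the second. Without the heat stress library of animal 18 the first run gave 0.81 for HSPA8 and 1.01 for HSPH1, both called. HSPA1L was then at 1.11 and no longer called (adjusted p = 0.0606 in edgeR's quasi-likelihood test), beside 14.3% of all genes called. In Lexogen HSPA1A and HSPH1 were called in the first run, at 2.71 and 1.55, beside 3.49% of all genes tested. Neither was called without the heat stress library of animal 18, where 2.09% of all genes were. They were then at 1.39 and 0.88, with adjusted p-values of 0.102 and 0.105 in edgeR. The second run gave 1.97 and 0.96 with adjusted p-values of 0.110 and 0.408 in edgeR's quasi-likelihood test, and 0 genes of the whole table were called there, with 1275 at an unadjusted p under 0.05. The difference between the runs was tested as an interaction with edgeR. In Takara 0 of the 10 genes were called (2.27% of all genes tested, 0.508% with a larger and 1.76% with a smaller value in the second run), and HSPA1A alone had an unadjusted p under 0.05, at -1.87 ± 0.86 (SE) with an adjusted p of 0.275. Under the animal block it was at -0.82 ± 0.73 (SE) and without the heat stress library of animal 18 at -0.18 ± 0.45 (SE), and 0 of the 10 genes then had an unadjusted p under 0.05 in edgeR. In Lexogen 0 of 9 were called (0.0222% of all genes tested, 0.0148% larger and 0.00742% smaller) and 0 had an unadjusted p under 0.05. In simulated data the run interaction recovered 68% of log2 differences of 2 in Takara and 10.9% in Lexogen. Uncalled genes therefore cannot be taken as alike in both runs.

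The response was also compared between the kits. The interaction of kit and time, fitted with edgeR in the 24 RNA samples with libraries of both kits, called 0 of the 10 genes and 0% of 13354 genes, with 526 at an unadjusted p under 0.05. HSPA8 was the member with an unadjusted p under 0.05. In simulated data this interaction recovered 53.8% of log2 differences of 2, so smaller differences between the kits could be missed. For HSPH1 the responses differed by 0.00 ± 0.22 (SE), for HSPA1A by -0.48 ± 0.31 (SE) and for HSPA4 by 0.14 ± 0.25 (SE), Takara minus Lexogen.

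Levels were set side by side between the kits within the same RNA. Of the 10 genes, 7 were called, near the share of 71.6% over all genes tested (edgeR's quasi-likelihood test with the RNA sample as a block). Over all genes tested, 45.3% were higher in Takara and 26.3% lower. Takara gave the higher level for HSPA1L, by 2.77 ± 0.65 (SE), and for HSPA2, by 3.19 ± 0.86 (SE). Both were near the floor in Lexogen, with medians of 0.15 and 0 CPM of the total count on genes, against 2.05 and 0.90 in Takara. The HSPA4L reads assigned by strand were mostly antisense in both kits, so its difference is not that of HSPA4L alone. Lexogen gave the higher level for HSPA4L (-1.96 ± 0.43), HSPA4 (-1.56 ± 0.13), HSPA9 (-1.07 ± 0.15), HSPA14 (-0.76 ± 0.10) and HSPA8 (-0.56 ± 0.12), as Takara minus Lexogen. The median over all genes was 0.48. As CPM of the total count on genes, HSPA4 was lower in Takara in 23 of 24 RNA samples, with medians of 50.7 and 125, and HSPA9 and HSPA14 in 22 each. HSPA1A (0.02 ± 0.16), HSPA13 (0.53 ± 0.51) and HSPH1 (-0.11 ± 0.11) were not called.

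**Figure D4:**
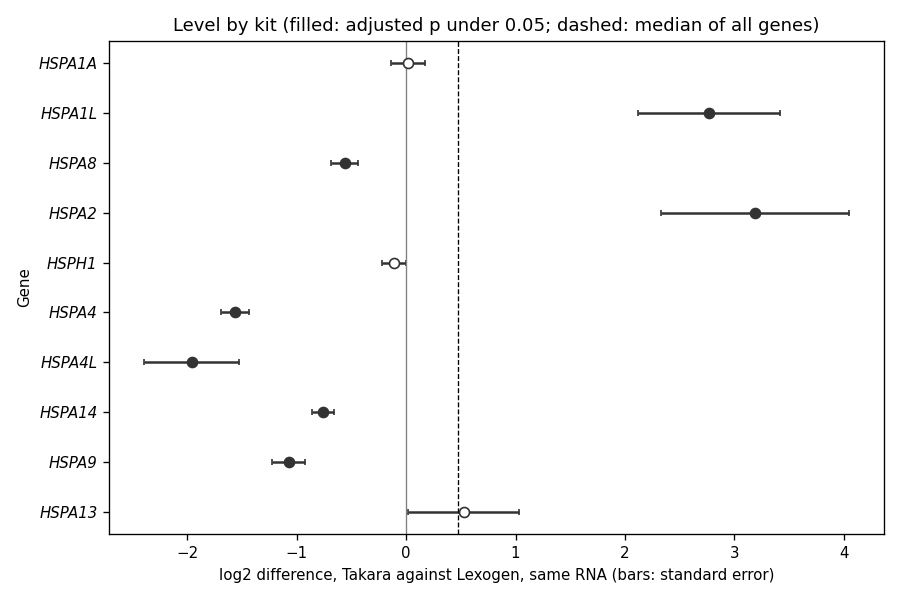
Fitted log2 difference in level of each gene between Takara and Lexogen libraries of the same RNA, with the standard error as a bar, filled points where the adjusted p is under 0.05 and a dashed line at the median of all genes (0.48). HSPA1L and HSPA2, both near the floor in Lexogen, lie to the right, at 2.77 and 3.19, and 5 called genes lie to the left of 0.

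The partners of HSP70 were read from lists of other genes of the cycle. Of 5 other genes of the HSP70 family in the tables, HSPA5 and HYOU1, the HSP70 and HSP110 of the endoplasmic reticulum, had enough counts to be tested, and 0 were called by edgeR in either kit. Their Takara log2 fold changes were 0.25 ± 0.14 (SE, unadjusted p = 0.0920) and 0.09 ± 0.16 (SE, unadjusted p = 0.609). HSPA6, another heat-inducible HSP70, had too few counts to be tested. Its Takara level was at most 0.71 CPM in control libraries, with a median of 2.12 CPM and up to 45.2 CPM in heat stress libraries, the highest in animal 18 and the next at 7.06 CPM. In Lexogen HSPA6 was at 0 counts in all 13 control libraries and in 7 of 13 heat stress libraries. Of 11 cytosolic J proteins in Takara, 1 rose and 1 fell, where 18.4% of all genes rose and 10.5% fell. DNAJA1, a J protein that works with cytosolic HSP70, rose by 1.96 ± 0.43 (SE; edgeR's quasi-likelihood test, adjusted p = 0.00154), in 11 of 12 animals. The heat stress library of animal 18 held 118.98 CPM of DNAJA1 and the next highest 43.1 CPM, and without it the log2 fold change was 1.21 ± 0.27 (SE), still called. DNAJC2, a J protein of the ribosome, fell by 0.41 on the log2 scale (SE 0.11, adjusted p = 0.00783 in the same edgeR test), in 12 of 12 animals. The median of the list was 0.08, against -0.05 over all genes.

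Of 9 HSP70 cofactors in Takara, 2 were up-regulated, beside 18.4% of all genes, and the median was 0.05. They were STIP1, or HOP, which links HSP70 to HSP90, at 0.71 ± 0.16 (SE; edgeR's quasi-likelihood test, adjusted p = 0.00200), and BAG2, which exchanges the nucleotide of HSP70, at 0.49 ± 0.17 (SE, adjusted p = 0.0333 in the same edgeR test). Neither was called with total counts as library size, and 1 of them was called without the heat stress library of animal 7, 18 or 32 or the control library of animal 16 or 36. Of 7 HSPA9 partners tested, DNLZ, which keeps mitochondrial HSP70 soluble, was down-regulated, at -0.59 ± 0.17 (SE, adjusted p = 0.0101 in edgeR), beside 10.5% of all genes down-regulated, and the median was -0.24. In Lexogen 0 genes of these 3 lists were called by edgeR.

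Of 11 other heat shock genes tested in Takara, 5 were up-regulated, beside 18.4% of all genes, and the list median was 0.23. HSP90AA1, the inducible cytosolic HSP90, rose by 1.27 ± 0.23 (SE; edgeR's quasi-likelihood test, adjusted p = 0.000521), and by 0.94 ± 0.18 in Lexogen (SE, adjusted p = 0.00198), where it was the single gene called of 9, beside 5.09% of all genes up-regulated. AHSA1, which activates the ATPase of HSP90, rose in 12 of 12 Takara animals, by 0.99 ± 0.20 (SE). In Lexogen AHSA1 was at 1.10 ± 0.35 (SE), higher in 10 of 12 animals, and not called (adjusted p = 0.0570 in edgeR). The rest of the Takara genes were the small heat shock protein HSPB1 at 0.55 ± 0.19 (SE), the HSP90 partner CHORDC1 at 0.51 ± 0.14 (SE) and the immunophilin FKBP4 at 0.51 ± 0.18 (SE). With the animal as a block, 3 of the 11 were called in Takara and 0 of 9 in Lexogen, beside 25.1% and 0.594% of all genes tested. Without the heat stress library of animal 12 the Takara number was also 3, beside 29.5% of all genes. Without that of animal 18, 4 of the 11 were called in Takara, beside 23.6% of all genes, FKBP4 being the gene lost (0.45 ± 0.19, SE).

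**Figure D5:**
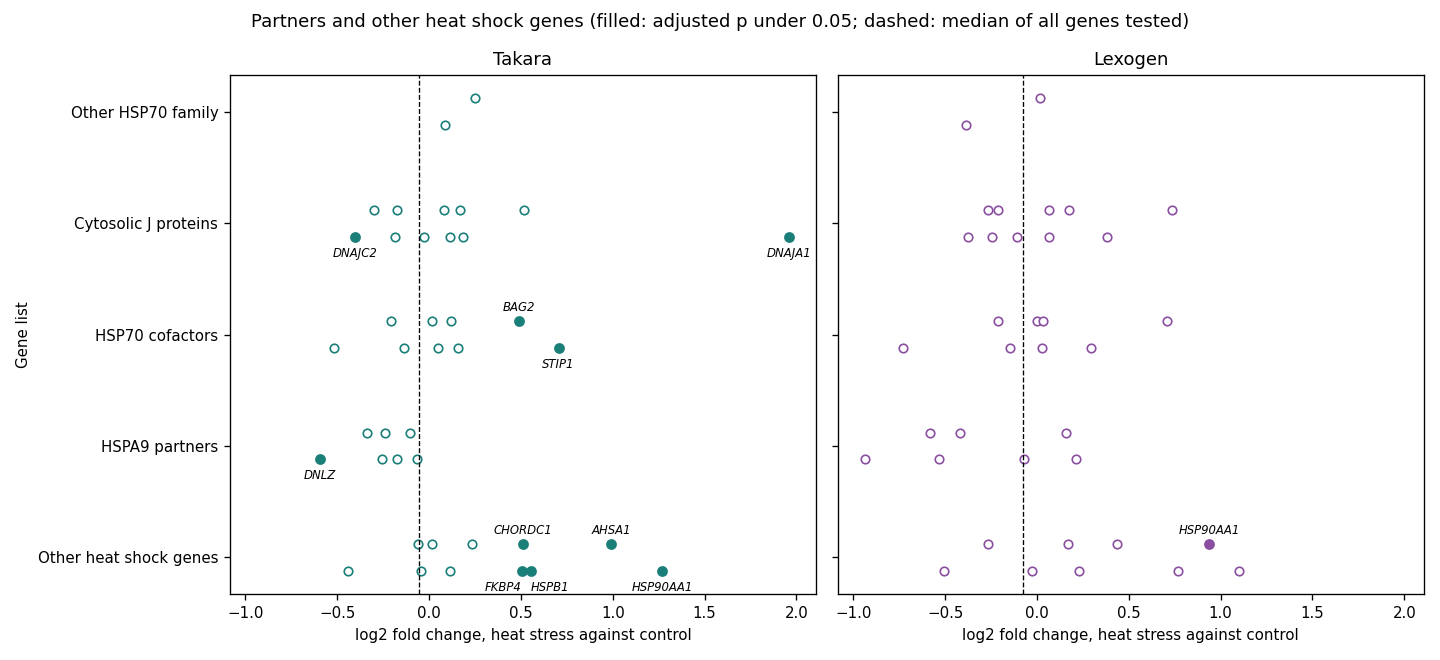
Fitted log2 fold change of heat stress against control for the genes tested in 5 lists of HSP70 partners and other heat shock genes, by kit, with filled and named points where the adjusted p is under 0.05 and a dashed line at the median of all genes tested. DNAJA1 (1.96) and HSP90AA1 (1.27) lie farthest right in Takara, and HSP90AA1 (0.94) is the filled point in Lexogen.

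Genes whose change per animal was most like that of 3 chaperone genes were picked by Pearson r over the 12 Takara animals among 10833 genes tested in both kits, as a description without a test. For HSPA1A they were ZNF207 (0.92), HSPA8 (0.90), LOC112448863 (0.88), PYGO1 (0.87) and FCGR2B (0.87). For HSPA8 they were PSMD6 (0.92), MAT2B (0.91), LOC617565 (0.91), AHSA1 (0.91) and FCGR2B (0.91). For HSPH1 they were LOC132345122 (0.89), LOC112448863 (0.84), LOC100848575 (0.84), HSPA1A (0.83) and LOC132343471 (0.82). All points of an animal share its libraries, and the values leaned on animal 18. Without the 2 animals farthest from the median, r between HSPA1A and HSPA8 was 0.64, between HSPA8 and AHSA1 0.65, and between HSPH1 and HSPA1A 0.69. The last value depends on which animals are dropped, and was 0.55 without the animals farthest in HSPA1A in place of HSPH1. In the 12 Lexogen animals these r were 0.59, 0.59 and 0.49. The other genes picked in Takara had a Lexogen r of 0.21 (ZNF207), 0.51 (LOC112448863), 0.53 (PYGO1) and 0.28 (FCGR2B) with HSPA1A. With HSPA8 the Lexogen r was 0.16 for PSMD6, 0.21 for MAT2B, 0.26 for LOC617565 and 0.34 for FCGR2B. With HSPH1 it was -0.16 for LOC132345122, 0.44 for LOC112448863, 0.45 for LOC100848575 and 0.11 for LOC132343471.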

How the data were processed

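Whole blood RNA of 29 samples was sequenced as 54 libraries. Per the labels and the methods of the study, the authors used Trimmomatic 0.39 for trimming and STAR 2.7.10b for mapping to ARS-UCD2.0, and deposited raw, not normalized counts per gene of reads with a unique place. Each file has an unstranded column, then the sense and the antisense counts. The column used by the authors is not given in the sources used here, and the unstranded counts were used. Reads without a gene were left out. Of the 32637 gene IDs, 30271 matched a symbol of the RefSeq annotation, and all 10 chaperone genes were found. The genes, lists and tests were chosen with earlier results of these data known.

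Times were compared within each kit with edgeR 4.0.16 in R 4.3.3 (filterByExpr defaults, TMM, quasi-likelihood test of time alone, Benjamini-Hochberg over all genes tested, threshold 0.05). CPM used the TMM-scaled library size, and changes per animal used log2 CPM with a prior count of 0.5. Kits were compared in 24 RNA samples with the RNA sample as a block. Replicates were animals. The animal pairs the libraries by its label, and a same-animal correlation of deviations over 0.1 was found for 11 Takara and 1 Lexogen animals of 12 each. The alternatives were the animal as a block, RLE factors, total counts, no filter, DESeq2 1.42.0, sense counts, both placements of animal 20, each run of sample numbers and each library left out. Leaving out each library in turn, and the fits without animal 18, were chosen after seeing the data. In simulated data a log2 change of 1 was recovered in 77% of genes in Takara and 17.5% in Lexogen, and a log2 change of 2 in 96.8% and 62.5%. There 100 and 94 of 12467 Takara genes and 97 and 96 of 10731 Lexogen genes were changed. No simulation, those of the interactions included, held an effect of the animal. Recovery depends on the share of genes that change, so these rates cannot be carried over to the real fits. Counts carry no molecular identifiers. All 10 chaperone genes, the called genes of the partner lists with the largest changes (up to 4 per list) and the 5 genes most alike were named. FKBP4, HSPA5, HSPA6 and HYOU1 were named after their values were seen. Promoter motifs were not searched, since no sequence was used here.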

Additional observations from a re-analysis of the deposited data

Results flagged for a closer look

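The libraries of animal 20 stood outside the comparison of times and held more than every control library of 6 of the 10 chaperone genes in Takara and of 4 in Lexogen. On the scale of all 27 libraries of a kit, its Takara library held 3193 CPM of HSPA1A, where the highest control held 41.6 CPM and the highest other heat stress library 999.9 CPM. HSPH1 was at 396 CPM (highest control 34.9), HSPA4 at 143 CPM (56.2), HSPA1L at 36.8 CPM (3.13) and HSPA4L at 6.65 CPM (2.82), all above the 26 other Takara libraries. HSPA8 was at 1768 CPM (highest control 343) and above 25 of the 26. Its Lexogen library held 1781 CPM of HSPA1A (highest control 30.96), 1333 CPM of HSPA8 (761) and 5.38 CPM of HSPA1L (3.40), above all 26 others, and 258 CPM of HSPH1 (39.9), above 25 of them. The other genes did not stand above the controls. HSPA9 (15.2 CPM in Takara, 18.3 CPM in Lexogen) was above 1 and 2 of the 26 others, HSPA14 in Lexogen (16.1 CPM) below all 26 and HSPA2 in Takara (0.16 CPM) above 2. In Lexogen HSPA4 (204 CPM, highest control 208) and HSPA4L (8.88 CPM, 19.4) lay under the highest control. The labels put both libraries at 6PM after heat stress, while the sample table of the study lists 1 calf with the control time alone. The values were not used to place them.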

How the results depend on the processing

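The 4 Takara calls (HSPA1A, HSPA1L, HSPA8, HSPH1) were kept under RLE factors, total counts, no filter, DESeq2, sense counts, the animal as a replicate block, animal 20 as heat stress and each library left out. HSPA4 joined them (5 genes) with the block, RLE factors, DESeq2 or animal 20 as heat stress, and without the heat stress library of animal 15 or 3 or the control library of animal 12 or 41 (0.19 to 0.32 over libraries left out). DESeq2 gave HSPA1A as 1.29 in Takara. With the animal as a replicate block, Lexogen calls fell from 2 to 1 (HSPA1A), also without animal 18 (1). In the second run of sample numbers 0 members were called in Lexogen (3 at an unadjusted p under 0.05 in edgeR), and HSPA9 (0.033), HSPA13 (0.20) and HSPA14 (0.061) in Takara and HSPA4L (-1.26) in Lexogen turned sign. In the first run HSPA4 (-0.13) and HSPA13 (0.11) did so in Lexogen. The heat stress library of animal 18 was also left out of the first run, an alternative chosen after seeing the data. Then 3 members stayed called in Takara and 0 in Lexogen (2 at an unadjusted p under 0.05 in edgeR), beside 14.3% and 2.09% of all genes. HSPA4L (-0.17) in Takara and HSPA4 (-0.23) and HSPA13 (0.27) in Lexogen turned sign. Leaving that library out of the run interaction turned HSPA4L (0.23) and HSPA8 (0.48) in Takara and HSPA1A (0.58), HSPA1L (-0.19) and HSPH1 (0.084) in Lexogen, none of them called. With animal 20 as control 0 members were called in either kit (1 in Takara, HSPA8, and 0 in Lexogen at an unadjusted p under 0.05), with HSPA1A at -0.93 and -0.51, HSPA1L at -0.045 and HSPA4L at -0.086 in Takara and HSPA13 at 0.017 in Lexogen. Uncalled values that turned sign elsewhere were HSPA4L with total counts (-0.091 Takara, -0.047 Lexogen), with the block (-0.21 Lexogen) and with the block without animal 18 (-0.13 Takara, -0.60 Lexogen), and HSPA4 with the latter (-0.0028 Lexogen). In the run interaction these were HSPA1A with the block (0.45), and HSPA1L with RLE (-0.0085) and sense counts (-0.070), all in Lexogen. In the kit interaction they were HSPA2 (1.61) and HSPA4L (0.14) with sense counts and HSPH1 without a filter (-0.0093), and between kits HSPA1A without a filter (-0.019) or with sense counts (-0.22) and HSPH1 with RLE (0.021). With sense counts HSPH1 was also called between kits (-0.33). Leaving out a library turned the sign of HSPA4L in Takara (-0.047 to 0.31) and of HSPA4 (-0.0088 to 0.16), HSPA4L (-0.62 to 0.36) and HSPA13 (-0.44 to 0.12) in Lexogen. Over all genes, the 3646 Takara DEGs became 4907 without a filter, 2126 with the block without animal 18, 931 in the second run and 0 with animal 20 as control (3804 at an unadjusted p under 0.05). The 616 Lexogen DEGs became 3273 without a filter, 1006 with DESeq2, 402 in the first run, 66 with the block, 23 with the block without animal 18 and 2 with animal 20 as control. The 312 genes of the Takara run interaction became 171 with the block and 146 without a filter. Among values of single members and counts of the partner lists, 1470 were unchanged. A member value was unchanged if it kept its direction and call, and a list count if it stayed near the count given above. Of the member values, 52 turned sign, 11 lost their call and 9 gained a call. The remaining 54 were list counts that moved. The causes were not tested.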
